A study of Homo sapiens with 44 samples.

Results

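IL-1β and IL-17A were compared directly in Ccd18-Co cells, a fibroblast line derived from human colon, by the accessibility of their chromatin. The members were chosen by their labels and not by any measured value. They are the 4 libraries of cells given IL-1β (labelled IL1B) at 0.1 ng/ml and the 4 libraries of cells given IL-17A (labelled IL17A) at 10 ng/ml, 8 of the 44 libraries of the series. Cells were starved of serum and exposed to 1 cytokine in serum-free medium for 24 h. The 4 libraries of unstimulated cells of the same line were used to say on which side of the resting level each cytokine lay. The series' design text says that cytokines were followed by vehicle or epigenetic modulators, and the labels of these 12 libraries name no such agent. The IL-1β dose is that of the labels and the study's methods, while a figure legend of the study gives a lower one. The doses of the cytokines differ, so each difference below is between those doses as well as between the cytokines, and these cannot be told apart. All cells came from 1 line, and nothing states whether the 4 replicates of a group were separate cultures, so p-values measure the spread between these libraries, which may be technical.

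IL-1β binds a receptor made of IL1R1 and IL1RAP, and signals through MYD88, the IRAK kinases and TRAF6 to the transcription factors NF-κB and AP-1. IL-17A binds IL17RA and IL17RC, recruits the adaptor TRAF3IP2 (Act1), and is known for weak activation of NF-κB on its own and for stabilising chemokine mRNAs made in response to other cytokines. Both act on intestinal fibroblasts, and both are known as inducers of neutrophil-attracting chemokines. ATAC-seq, the assay used, reports where a transposase can reach DNA, which marks promoters and enhancers that are open, and it does not measure RNA.

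Stretches of DNA from some of the called peaks described below are shown first, since the motifs in them return there. Each is 250 bases of a deposited peak, or for CXCL8 the 200 bases upstream of the first annotated exon that the RefSeq promoter table of GRCh38.p14 holds, printed on the + strand of hg38. The first 7 were higher with IL-1β, and capitals mark matches on either strand to an NF-κB motif or to the AP-1 motif TGANTCA.
CXCL8 upstream region, chr4:73740319-73740518: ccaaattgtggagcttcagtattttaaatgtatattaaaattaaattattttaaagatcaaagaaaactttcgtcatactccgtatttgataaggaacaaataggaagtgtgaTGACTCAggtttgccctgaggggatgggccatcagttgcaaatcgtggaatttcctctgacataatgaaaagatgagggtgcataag
LINC00477 distal peak, chr12:24719559-24719808: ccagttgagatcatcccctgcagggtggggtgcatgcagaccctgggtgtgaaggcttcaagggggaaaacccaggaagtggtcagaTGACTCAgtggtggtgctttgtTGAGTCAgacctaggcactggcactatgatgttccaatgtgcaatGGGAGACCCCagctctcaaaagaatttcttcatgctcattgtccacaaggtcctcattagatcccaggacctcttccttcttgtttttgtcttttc
KCNE2 peak, chr21:34282305-34282554: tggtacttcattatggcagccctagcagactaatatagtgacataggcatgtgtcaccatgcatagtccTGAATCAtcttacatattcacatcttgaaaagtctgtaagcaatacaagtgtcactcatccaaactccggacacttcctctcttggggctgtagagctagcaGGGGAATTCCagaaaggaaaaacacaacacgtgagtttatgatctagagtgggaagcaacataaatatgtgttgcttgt
CACNA2D3-AS1 intronic peak, chr3:54873278-54873527: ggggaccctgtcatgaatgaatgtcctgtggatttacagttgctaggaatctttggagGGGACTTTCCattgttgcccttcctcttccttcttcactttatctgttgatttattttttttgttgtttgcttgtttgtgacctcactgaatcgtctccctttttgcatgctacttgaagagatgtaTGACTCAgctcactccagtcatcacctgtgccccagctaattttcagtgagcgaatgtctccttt
ETV4 distal peak, chr17:43608532-43608781: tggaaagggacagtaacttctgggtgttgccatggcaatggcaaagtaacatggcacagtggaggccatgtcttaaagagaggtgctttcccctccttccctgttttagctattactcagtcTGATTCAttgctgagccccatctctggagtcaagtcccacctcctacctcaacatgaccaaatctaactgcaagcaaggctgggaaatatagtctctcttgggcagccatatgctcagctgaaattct
IL11 distal peak, chr19:55372791-55373040: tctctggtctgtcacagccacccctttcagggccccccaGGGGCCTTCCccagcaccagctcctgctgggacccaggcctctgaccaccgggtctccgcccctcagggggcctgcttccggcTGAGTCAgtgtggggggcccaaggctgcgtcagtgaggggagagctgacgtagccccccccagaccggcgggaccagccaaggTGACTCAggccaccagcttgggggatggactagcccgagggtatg
MMP12 distal peak, chr11:102882738-102882987: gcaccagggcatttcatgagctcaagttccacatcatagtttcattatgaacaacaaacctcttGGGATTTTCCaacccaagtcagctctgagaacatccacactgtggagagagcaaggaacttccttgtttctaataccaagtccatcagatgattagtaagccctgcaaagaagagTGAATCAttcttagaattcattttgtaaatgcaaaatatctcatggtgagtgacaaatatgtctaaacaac

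The next 3 were higher with IL-17A and lower with IL-1β than in unstimulated cells, and capitals mark the TEAD motif GGAATG or a CArG box, the site of serum response factor.
ADAMTS9-AS1 intronic peak, chr3:64548436-64548685: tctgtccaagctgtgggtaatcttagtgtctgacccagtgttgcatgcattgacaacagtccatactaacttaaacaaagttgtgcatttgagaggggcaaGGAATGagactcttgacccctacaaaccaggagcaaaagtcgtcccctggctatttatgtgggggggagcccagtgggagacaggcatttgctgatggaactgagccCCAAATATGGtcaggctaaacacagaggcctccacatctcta
COG7 intronic peak, chr16:23420117-23420366: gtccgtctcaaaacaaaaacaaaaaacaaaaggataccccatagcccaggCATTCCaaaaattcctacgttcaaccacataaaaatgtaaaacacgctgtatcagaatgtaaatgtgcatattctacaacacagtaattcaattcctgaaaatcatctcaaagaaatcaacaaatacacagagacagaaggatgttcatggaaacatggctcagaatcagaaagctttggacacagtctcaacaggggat
CALD1 upstream peak, chr7:134742263-134742512: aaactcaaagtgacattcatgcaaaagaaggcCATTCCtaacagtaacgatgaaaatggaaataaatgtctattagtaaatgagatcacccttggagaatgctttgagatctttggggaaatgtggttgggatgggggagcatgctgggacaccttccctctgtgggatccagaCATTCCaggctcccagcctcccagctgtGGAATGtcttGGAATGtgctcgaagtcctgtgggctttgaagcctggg
The last was raised by IL-17A over unstimulated cells and was higher than with IL-1β, and capitals mark NF-κB and AP-1 motifs.
ZFP36L1 distal peak, chr14:68785962-68786211: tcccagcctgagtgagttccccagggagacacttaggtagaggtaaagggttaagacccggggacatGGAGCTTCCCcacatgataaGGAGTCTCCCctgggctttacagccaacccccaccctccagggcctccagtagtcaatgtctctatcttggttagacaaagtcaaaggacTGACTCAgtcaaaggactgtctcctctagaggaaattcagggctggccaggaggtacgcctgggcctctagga
Matches of different motifs did not overlap in these windows. They are matches of letters, not measured binding, and a stretch without capitals says only that these letters are not in it. The windows were chosen after their values were seen. Each printed window holds a match, which many peaks of largest difference lack. Of the 12 such peaks named below as higher with IL-1β, 4 held the NF-κB motif and 6 the AP-1 motif. Those of CXCL8, CXCL5, CXCL2 and CXCL3 held neither. Of the 12 higher with IL-17A, 5 held the TEAD motif and 2 a CArG box, and the THBS1 peak held neither.

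The IL-1β libraries held 434.8 ± 84.6 Mb of coverage in peaks and the IL-17A libraries 409.3 ± 83.1 Mb (mean ± SD, n = 4 each), with no difference past the threshold (exact permutation test, two-sided, p = 0.629, where the smallest p that 4 against 4 allows is 0.0286). The top 1% of peaks by coverage accounted for 13.3 ± 0.540% of the total with IL-1β and 14.5 ± 0.711% with IL-17A (exact permutation p = 0.0571, adjusted over the 4 library measures 0.229). Correlations of log2 values between libraries lay between 0.847 and 0.880 within IL-1β, between 0.850 and 0.877 within IL-17A, and between 0.816 and 0.873 across the groups. The fibroblast label was checked against the peaks nearest to the start sites of marker genes. All 11 fibroblast markers had such a peak, and their summed coverage was 122 to 127 per Mb with IL-1β and 134 to 156 with IL-17A. Of the other lists, 4 of 9 epithelial, 7 of 7 endothelial, 2 of 9 leukocyte and 3 of 3 enteric glia markers had a peak at the start, with sums of at most 10.6 per Mb in any of the 8 libraries. The highest of these was CD14, a myeloid marker, at 6.28 with IL-1β and 5.67 with IL-17A.

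Of 407176 tested peaks, 4136 were higher with IL-1β (1.02% of all tested) and 5175 were higher with IL-17A (1.27%), together 9311 (2.29%), at an adjusted p under 0.05 with limma. Values are coverage per Mb of library coverage, and a difference is IL-1β minus IL-17A on the log2(coverage per Mb + 0.5) scale, on which low peaks change less than their fold. The peaks higher with IL-1β were fewer, although with a pseudocount of 2 they were more (5324 against 5106). Their median difference was 1.16 and 80 of them exceeded 2, while the median of those higher with IL-17A was -0.91 and 10 lay below -2. The median over all tested peaks was 0.05. The 4 libraries of each group did not overlap in 7887 of the 9311 called peaks, 3667 higher with IL-1β and 4220 higher with IL-17A, against 6.71% of all tested peaks (3.8% and 2.9% by direction). Called peaks were mostly well covered, and among the 173558 peaks whose mean reached 1 per Mb, 3861 (2.22%) were higher with IL-1β and 5104 (2.94%) higher with IL-17A. Without IL-1β replicate 4 the 4136 became 2665. In bulk libraries a lower value can mean that fewer cells had the site open or that it was less open in each cell, which cannot be told apart.

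Set against unstimulated cells, most of the contrast lay on the side of IL-1β in both directions. Of the 4136 peaks higher with IL-1β, 2663 (64.4%) were raised by IL-1β over unstimulated, in 1470 (35.5%) neither cytokine passed the test, and in 3 IL-17A was below unstimulated. The 2663 became 1759 without IL-1β replicate 4. Of the 5175 peaks higher with IL-17A, 3858 (74.6%) were lowered by IL-1β below unstimulated and 1298 (25.1%) were called for neither. IL-17A raised only 19 of them. The IL-1β level was farther from unstimulated than the IL-17A level in 89.1% of the peaks higher with IL-1β and in 93.3% of those higher with IL-17A. The peaks were chosen on the IL-1β and IL-17A libraries, and both differences use the same unstimulated libraries, so they are set side by side as a description. Among all tested peaks IL-1β raised 6994 (1.72%) and lowered 7277 (1.79%), and IL-17A raised 134 (0.0329%) and lowered 28 (0.00688%), with 6.45% at an unadjusted p under 0.05.

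**Figure D1:**
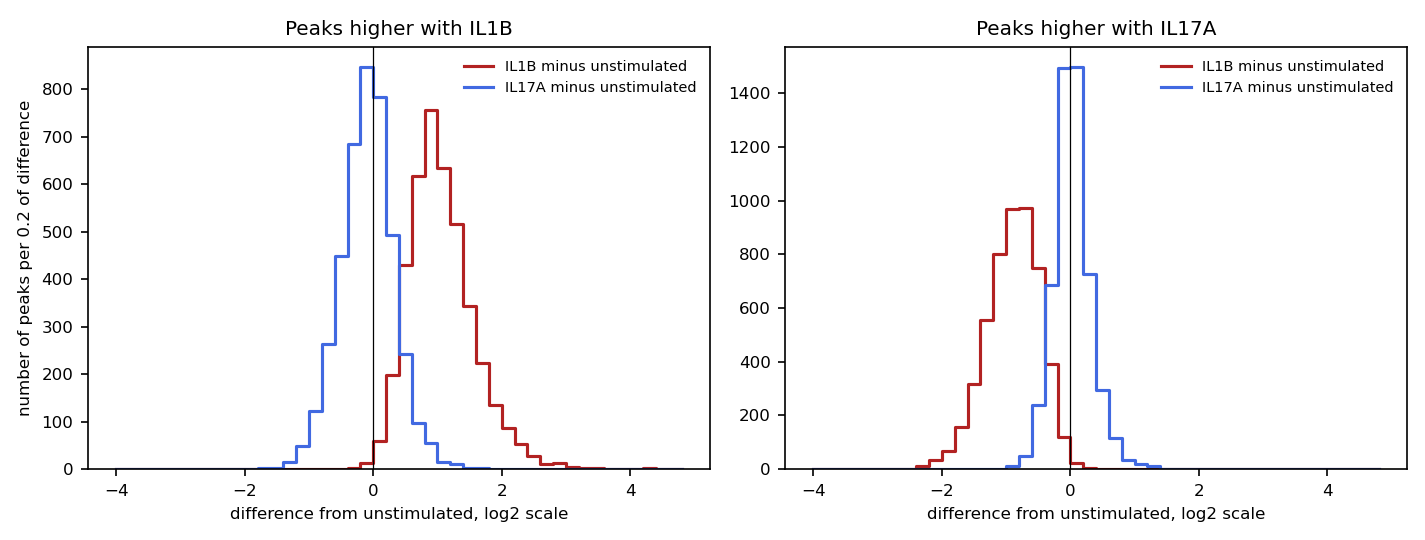
Number of called peaks (y axis) by their difference from unstimulated cells on the log2 scale (x axis, bins of 0.2), for IL1B (red) and IL17A (blue), in peaks higher with IL1B (left, 4136) and higher with IL17A (right, 5175). In both panels the blue line is centred near 0 (medians -0.08 and 0.01) and the red line is shifted (medians 1.00 and -0.86). Both lines share the unstimulated libraries and the peaks were chosen on the difference between the lines.

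The largest difference of all lay in CXCL8, which encodes interleukin-8, the main neutrophil attractant of the family. In its peak at chr4:73742531-73743031, in an untranslated part of an exon, coverage was 21.7, 12.7, 12.1 and 14.0 per Mb in the 4 IL-1β libraries. With IL-17A it was 0.877, 0, 0.370 and 0.327, and in unstimulated cells 0, 0, 0.0486 and 0.255. Every IL-1β library was far above every IL-17A library, and 3 of the 4 IL-17A libraries were below the coverage that 3 reads would give (0.423 to 0.696 per Mb, depending on the library). On the log2(coverage per Mb + 0.5) scale the difference was 4.18 ± 0.39 (SE, adjusted p = 1.98e-18). At the promoter peak, chr4:73740318-73740818, whose upstream bases are printed above, coverage was 17.8, 13.1, 15.0 and 19.0 with IL-1β and 3.02, 1.73, 3.36 and 2.66 with IL-17A, a difference of 2.41 ± 0.30 (adjusted p = 3.68e-11). The groups did not overlap there, and the IL-17A values lay beside the unstimulated ones (1.83 to 3.05).

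CXCL8 was also the gene with the most peaks higher with IL-1β. Of the 44 tested peaks that carry its name, 17 were called, all higher with IL-1β and all with groups that did not overlap. They ran from 35.9 kb upstream of the start to 37.3 kb downstream, and 11 of the 16 peaks within 10 kb were among them. The differences were highest over the gene and just past its end, between 2.41 and 4.18, and lay between 0.97 and 2.30 in the called peaks upstream and at 1.37 in the farthest one downstream.

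**Figure D2:**
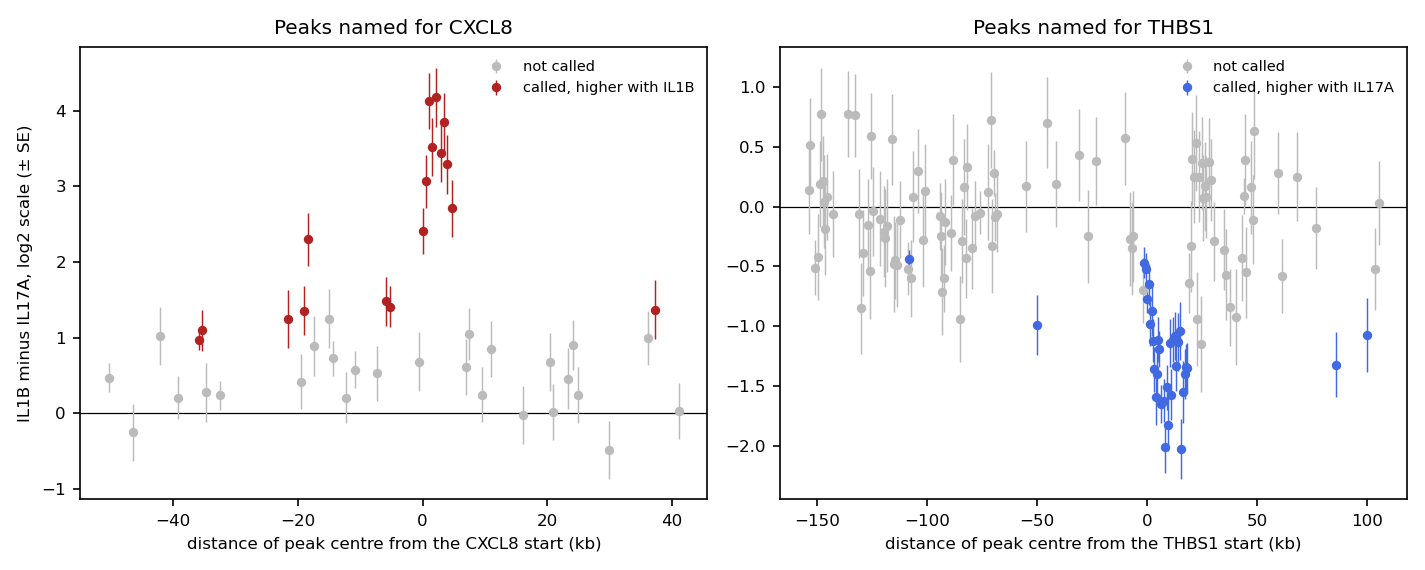
Difference IL1B minus IL17A on the log2 scale with its SE (y axis) for each tested peak named for CXCL8 (left) and THBS1 (right), against the distance of the peak centre from the gene's start in kb (x axis, positive downstream). Called peaks are red where higher with IL1B and blue where higher with IL17A, and gray peaks were not called. The 17 called CXCL8 peaks gather at the gene with a second group upstream, and 26 of the 33 called THBS1 peaks lie within the gene.

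The other neutrophil-attracting CXC chemokines followed in the same direction. Across CXCL1, CXCL2, CXCL3, CXCL5, CXCL6 and CXCL8, 34 of 171 peaks (19.9%) were higher with IL-1β and 0 were higher with IL-17A, beside 1.02% and 1.27% of all tested peaks. CXCL2, a neutrophil attractant like CXCL8, gave 8.27, 10.48, 7.48 and 9.52 per Mb with IL-1β and 1.20, 0.578, 0.353 and 1.70 with IL-17A in its peak at chr4:74097497-74097997, in an untranslated part of its exon. All IL-1β libraries were higher, and the IL-17A libraries overlapped the unstimulated range of 0.377 to 1.45. The difference was 2.78 ± 0.37 (adjusted p = 1.42e-09). CXCL5 gave 3.78, 4.42, 6.21 and 5.31 with IL-1β against 0.335, 0, 0 and 0.282 with IL-17A at chr4:73994318-73994818, 4.10 kb from its start. Every IL-17A library held 3 read equivalents or fewer, so the level with IL-1β was at least 7.09-fold higher, taken against the highest of those libraries' floors. In the distal peak of CXCL3 at chr4:74034945-74035445, values were 2.26 to 5.83 with IL-1β and 0.281 to 0.593 with IL-17A, a difference of 2.43 ± 0.39. CXCL6 had no called peak. Its promoter peak did not overlap between the groups but missed the threshold, at 8.29 with IL-1β and 5.25 with IL-17A (difference 0.60 ± 0.24, adjusted p = 0.226).

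At CXCL1 both cytokines passed the test over unstimulated cells. In its intronic peak at chr4:73870140-73870640 coverage was 24.4, 21.3, 26.2 and 22.4 with IL-1β, 8.41, 11.9, 8.84 and 6.98 with IL-17A and 3.79, 3.16, 4.43 and 4.80 in unstimulated cells. The 3 groups did not overlap and lay in the order IL-1β, IL-17A, unstimulated. IL-1β was above IL-17A by 1.36 ± 0.22 (adjusted p = 1.15e-06), and IL-17A was above unstimulated by 1.06 (adjusted p = 0.0124). Its promoter peak, chr4:73869143-73869643, read 27.3, 24.5, 28.0 and 26.7 with IL-1β and 14.4, 16.4, 15.6 and 20.1 with IL-17A, also without overlap (0.67 ± 0.15, adjusted p = 0.00171).

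Outside the chemokines, the distal peak named for ETV4, an ETS-family transcription factor, was among the largest. It lies at chr17:43608344-43608844 in an intron of DHX8, 53.3 kb from the nearest coding start, that of MEOX1. Coverage was 18.0, 14.8, 17.9 and 20.5 with IL-1β, 2.62, 1.38, 2.73 and 1.32 with IL-17A and 1.77, 0.744, 0.228 and 1.29 in unstimulated cells. IL-1β libraries were all above 14 and no other library reached 3, and the difference was 2.90 ± 0.34 (adjusted p = 1.15e-12). The promoter peak of ETV4 itself did not follow, at 14.0 with IL-1β and 14.5 with IL-17A (difference -0.03 ± 0.16, adjusted p = 0.978).

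The LINC00477 peak at chr12:24719339-24719839, 229.5 kb from the start of BCAT1, gave 13.2 to 20.2 with IL-1β and 0.874 to 4.02 with IL-17A (2.78 ± 0.31, adjusted p = 2.07e-13). The peak named for KCNE2, a potassium channel subunit, at chr21:34282244-34282744 gave 5.08, 5.81, 7.25 and 5.61 with IL-1β and 0, 2.52, 0.227 and 0.932 with IL-17A (2.51 ± 0.36, adjusted p = 2.16e-08). The CACNA2D3-AS1 peak at chr3:54873125-54873625, in an intron of CACNA2D3, gave 6.78, 7.03, 6.54 and 5.36 with IL-1β and 0.860, 1.11, 0.370 and 0.697 with IL-17A (2.49 ± 0.36, adjusted p = 2.53e-08). In all 3 the lowest IL-1β library was above the highest IL-17A library, and the IL-17A values overlapped those of unstimulated cells. The remaining peaks of the 12 with the largest differences were named for RAB27B, a GTPase of vesicle secretion, SMAP2, F2RL1, which encodes the protease-activated receptor PAR2, and LOC100505716, which lies 96.4 kb from the start of the AP-1 gene FOSL2, with differences between 2.44 and 2.58.

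In the other direction, the largest difference was in an intron of RUNX1, a transcription factor gene, at chr21:35326583-35327083 (deposited as LOC100506403). Coverage was 1.34, 1.03, 0.725 and 0.229 with IL-1β, 8.05, 5.68, 4.50 and 8.75 with IL-17A and 6.09, 5.95, 5.22 and 7.01 in unstimulated cells. IL-1β libraries were low, and the IL-17A and unstimulated libraries overlapped at a higher level (-2.48 ± 0.27, adjusted p = 1.8e-14). The smallest adjusted p of the 12 peaks named in this direction belonged to the ADAMTS9-AS1 peak at chr3:64548185-64548685, in an intron of the metalloprotease gene ADAMTS9. It read 4.26, 4.82, 4.20 and 3.03 with IL-1β and 21.5, 16.6, 23.4 and 19.4 with IL-17A, beside 20.3 to 29.4 in unstimulated cells. The difference was -2.18 ± 0.15 (adjusted p = 5.04e-32), with every IL-17A library above every IL-1β library.

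COG7, a subunit of a Golgi tethering complex, had an intronic peak at chr16:23420117-23420617 with 3.81, 2.08, 1.04 and 3.86 per Mb with IL-1β and 15.6, 12.3, 10.4 and 7.22 with IL-17A (-1.96 ± 0.18, adjusted p = 9.87e-20). The distal RGS10 peak at chr10:119491910-119492410 gave 0.759 to 2.98 with IL-1β, 7.91 to 8.98 with IL-17A and 5.34 to 11.1 in unstimulated cells (-1.96 ± 0.23, adjusted p = 2.58e-12). In both, IL-17A lay with unstimulated cells and IL-1β lay below. The others of the 12 were named for LOC101928782, PLB1, SEC61A1, the zinc transporter SLC39A8, the glutathione peroxidase GPX3, THBS1, LRRC58 and TULP3, with differences from -2.16 to -1.98. The GPX3 peak lies in an exon of TNIP1 and the LRRC58 peak in an exon of FSTL1, so a deposited name is that of a nearby gene and not always of the gene at the peak. In all 24 peaks of both directions the groups did not overlap, which the rule for naming them required.

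**Figure D3:**
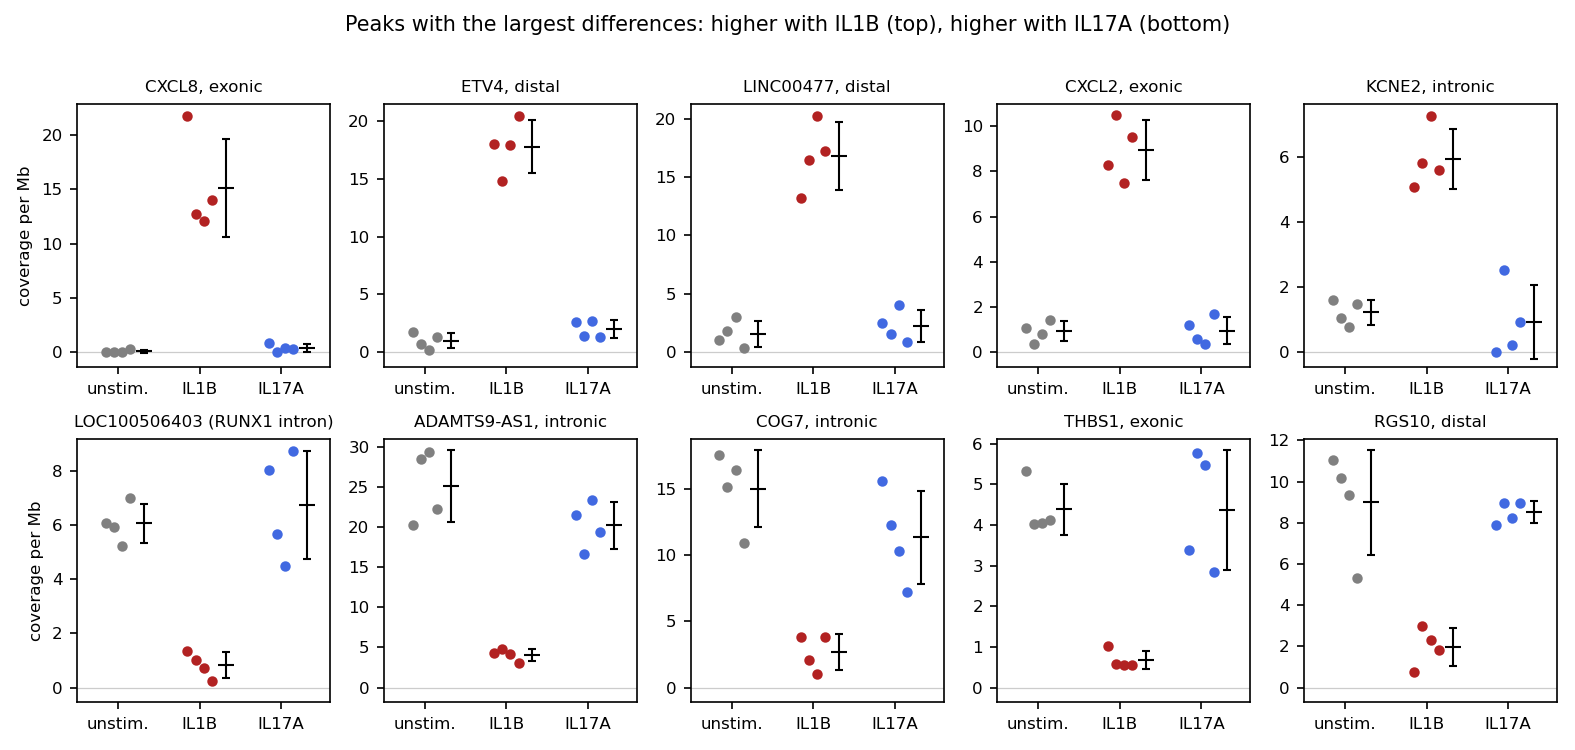
Coverage per Mb (y axis) in each library of unstimulated cells (gray), IL1B (red) and IL17A (blue) for 5 peaks higher with IL1B (top) and 5 higher with IL17A (bottom). Black bars give the mean and SD of 4 libraries. In the top row IL1B is high while IL17A lies beside unstimulated cells, and in the bottom row IL1B is low while IL17A again lies beside unstimulated cells.

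THBS1, which encodes the matrix protein thrombospondin-1, had the most called peaks of any gene in the whole contrast. Of 132 tested peaks with its name, 33 were called, all higher with IL-17A, and the groups did not overlap in 27 of them. All 26 tested peaks centred within the gene were called, with a median difference of -1.19 over the 33. In its leading peak at chr15:39596452-39596952, in an untranslated part of an exon, coverage was 1.01, 0.571, 0.549 and 0.561 with IL-1β and 3.39, 5.78, 5.47 and 2.85 with IL-17A, beside 5.33, 4.04, 4.04 and 4.12 in unstimulated cells. IL-1β libraries were low throughout, and IL-17A libraries spanned the unstimulated range (-2.02 ± 0.25, adjusted p = 2.18e-11). In most of the other peaks over the gene the IL-17A mean lay below the unstimulated mean. At the start it was 19.41 against 24.85 per Mb, and 11.7 kb downstream 6.69 against 11.04. At 4.3 kb it was higher, at 10.24 against 9.63.

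Several other genes held many called peaks. COL1A1, the main fibrillar collagen gene, had 15 of 29 peaks higher with IL-17A, 14 of them among the 22 centred within the gene. TPM1, a tropomyosin of the actin cytoskeleton, had 11 of 63, all 11 among the 31 in its body. The 13 of 47 peaks deposited under ATG101 lay mostly in NR4A1, a nuclear receptor gene, which held 10 of them among 20 tested. ZFP36L1, an RNA-binding regulator of mRNA decay, had 11 of 309 higher with IL-17A and 2 higher with IL-1β, spread over 356.1 kb, with 1 of the 11 in its own body and 5 in RAD51B.

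On the IL-1β side, the 14 of 33 peaks deposited under MIR549A all lay in CEMIP, which encodes a hyaluronan-degrading protein, and 13 of the 14 had groups that did not overlap. IL33, an IL-1 family cytokine, had 8 of 34, between 1.04 and 1.97. Also at 8 called peaks were GLIS3-AS1 (all 8 in GLIS3), MIR4756, RFX8 and WTAP, the last 3 with 1, 2 and 2 peaks higher with IL-17A. Of the WTAP peaks, 7 had the start of SOD2, the mitochondrial superoxide dismutase, as the nearest coding start.

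Among cytokines and growth factors, 33 of 803 peaks were higher with IL-1β (4.11%) and 9 were higher with IL-17A (1.12%). Over all tested peaks the shares were 1.02% and 1.27%. The IL-1β side held peaks of 12 of the 22 genes, with 5 each for CSF3, LIF and FGF2. CSF3, the granulocyte growth factor, had a promoter peak at chr17:40015247-40015747 with 10.6, 10.3, 12.7 and 8.30 with IL-1β and 3.06, 2.07, 1.66 and 2.85 with IL-17A. The groups were well apart and the IL-17A values ran into the unstimulated range of 0.781 to 2.59 (1.93 ± 0.32, adjusted p = 2.24e-06). The IL11 peak printed above, from chr19:55372696-55373196, gave 14.7 to 19.4 with IL-1β and 3.85 to 4.90 with IL-17A (1.82 ± 0.22, adjusted p = 1e-11), and IL11 is a cytokine of the IL-6 family made by stromal cells. CSF2, a myeloid growth factor, gave 27.4 to 30.5 and 10.6 to 14.9 in its distal peak (1.28 ± 0.17, adjusted p = 8.22e-10).

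TSLP and IL34 went the other way. TSLP, a cytokine of type 2 immunity, had 3 of 30 peaks higher with IL-17A, and its leading peak at chr5:110916356-110916856, 155.1 kb from the start, gave 12.5, 12.5, 11.5 and 13.5 with IL-1β and 29.4, 31.2, 29.1 and 23.9 with IL-17A (-1.15 ± 0.12, adjusted p = 3.05e-14). The IL34 peak, in an exon of SF3B3, gave 3.96 to 7.70 and 15.6 to 17.9 (-1.56 ± 0.15, adjusted p = 3.99e-18). No library of one group reached the range of the other in either peak. IL6 had no called peak, and its promoter peak was at 11.8 with IL-1β and 12.8 with IL-17A (difference -0.13 ± 0.16, adjusted p = 0.852).

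Peaks named for IL-1 family ligands, receptors and signalling genes were higher with IL-1β in 17 of 417 (4.08%) and lower in 4 (0.959%). Over all tested peaks the shares were 1.02% and 1.27%. Of the 17, 8 carry the name IL33. IRAK2, a kinase of the receptor complex, had 4 of 36, and its leading peak at chr3:10173840-10174340 gave 44.1, 38.1, 42.4 and 45.4 with IL-1β and 23.1, 23.3, 25.4 and 26.5 with IL-17A (0.78 ± 0.12, adjusted p = 7.45e-08). IL33 gave 11.1, 12.3, 11.6 and 11.4 and 4.73, 3.93, 2.70 and 5.90 in a peak 1.2 kb from its start (1.37 ± 0.25, adjusted p = 3.28e-05). The distal peak of IL1B, the gene of the added cytokine, gave 6.67 to 9.19 with IL-1β and 2.47 to 3.07 with IL-17A (1.33 ± 0.30, adjusted p = 0.00162). None of the 3 overlapped between groups. IL1R1, the receptor gene, had 2 of 74 peaks higher with IL-17A and 1 higher with IL-1β. Its leading peak, at chr2:102064108-102064608, gave 30.9 to 32.4 with IL-1β and 41.9 to 46.1 with IL-17A (-0.48 ± 0.10, adjusted p = 0.000218). That peak lies 72.4 kb from the nearest coding start, that of IL1R2. Of 14 genes of this list with a peak at the start, 0 had that peak called, IL1R1 being at 8.80 with IL-1β and 9.69 with IL-17A (difference -0.14 ± 0.18, adjusted p = 0.865).

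Receptors and partners of IL-17A had 4 of 392 peaks higher with IL-1β (1.02%) and 9 higher with IL-17A (2.30%). The shares of all tested peaks were 1.02% and 1.27%. Of the 9, 4 carry the name TRAF3IP2. The leading one of these, at chr6:111691342-111691842, lies in an intron of FYN, 85.7 kb from the TRAF3IP2 start. MAP3K14 (NIK), a kinase of the non-canonical NF-κB pathway, gave 5.46 to 7.76 with IL-1β and 11.4 to 22.2 with IL-17A at chr17:45368609-45369109 (-1.25 ± 0.14, adjusted p = 1.1e-13). ARID5A, an RNA-binding protein that protects inflammatory mRNAs, went the other way in a distal peak, with 16.3 to 19.9 and 4.41 to 8.23 (1.48 ± 0.21, adjusted p = 2.17e-08). At promoters, the peak of TRAF3IP2 was higher with IL-1β (12.3 to 18.2 against 7.74 to 10.3, 0.73 ± 0.18, adjusted p = 0.00421). The receptor genes did not pass the test there, with IL17RA at 17.6 and 19.8 (-0.17 ± 0.13, adjusted p = 0.712) and IL17RC at 21.8 and 18.7 (0.22 ± 0.13, adjusted p = 0.585).

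NF-κB subunits and feedback genes had 16 of 657 peaks higher with IL-1β (2.44%) and 5 higher with IL-17A (0.761%). The shares of all tested peaks were 1.02% and 1.27%. BIRC3, an inhibitor of apoptosis induced through NF-κB, had its promoter peak at 17.1, 15.4, 18.1 and 17.4 with IL-1β and 7.41, 5.54, 7.69 and 7.79 with IL-17A (1.21 ± 0.19, adjusted p = 2.86e-07). TNIP2, a feedback protein of the same pathway, gave 13.7 to 21.4 and 4.52 to 6.14 in an intronic peak (1.54 ± 0.21, adjusted p = 1.6e-09). IL-1β libraries were higher without overlap in both. TRAF1, of the same list, went the other way in a peak in an intron of C5. It gave 6.96 to 10.55 with IL-1β and 14.16 to 19.01 with IL-17A, without overlap (-0.96 ± 0.15, adjusted p = 1.88e-07). NFKBIA, the inhibitor IκBα, had 4 of 77 called, while its promoter did not pass the test (16.3 and 14.1, difference 0.20 ± 0.15, adjusted p = 0.711), and neither did that of NFKBIZ (25.1 and 25.4, -0.02 ± 0.13, adjusted p = 0.981).

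Other chemokines were mixed. CCL2, a monocyte attractant, had 6 of 30 peaks higher with IL-1β, and the leading one at chr17:34235326-34235826 gave 19.8, 15.0, 17.4 and 15.1 with IL-1β and 3.36, 4.10, 5.03 and 4.22 with IL-17A, beside 0.901 to 3.29 in unstimulated cells (1.89 ± 0.29, adjusted p = 1.56e-07). The promoter of CXCL10, a T cell attractant, was at 4.03 ± 0.497 with IL-1β and 1.35 ± 0.413 with IL-17A (SD, n = 4, difference 1.32 ± 0.32, adjusted p = 0.00409). That of CCL11, the eosinophil attractant eotaxin, was at 2.21 ± 0.338 and 5.32 ± 1.496 (-1.07 ± 0.24, adjusted p = 0.00131). The groups did not overlap in these 3 peaks.

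Matrix metalloproteinases and their inhibitors had 10 of 640 peaks higher with IL-1β (1.56%) and 12 higher with IL-17A (1.88%). Beside these stand 1.02% and 1.27% of all tested peaks, and TIMP3 and ADAMTS9 were on both sides. The peaks higher with IL-1β were of MMP3, MMP9, MMP10, MMP12, MMP13, TIMP3 and ADAMTS9. The promoter of MMP3, stromelysin-1, gave 15.5, 13.6, 16.0 and 14.2 with IL-1β and 6.22, 5.79, 7.31 and 5.61 with IL-17A (1.19 ± 0.23, adjusted p = 0.000125). The distal MMP12 peak printed above gave 10.0 to 12.4 and 1.71 to 3.74 (1.97 ± 0.31, adjusted p = 5.63e-07). On the other side ADAMTS1, an aggrecan-cleaving protease, held 6 of the 12. Among adhesion genes 6 of 433 peaks were higher with IL-1β (1.39%) and 4 with IL-17A (0.924%), near the 1.02% and 1.27% of all tested peaks. ICAM1, a ligand of leukocyte integrins, had a promoter peak at 6.92 ± 2.01 with IL-1β and 2.14 ± 1.32 with IL-17A, with unstimulated cells at 3.48 between them (difference 1.60 ± 0.26, adjusted p = 2.59e-06).

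Contractile genes, the actin-binding and smooth muscle genes of myofibroblasts, had 41 of 525 peaks higher with IL-17A (7.81%) and 3 higher with IL-1β (0.571%). Beside these stand 1.27% and 1.02% of all tested peaks. The 41 came from 11 of the 15 genes, led by TPM1 with 11 peaks, TAGLN with 8 and CALD1 with 6. The CALD1 (caldesmon) peak printed above, from chr7:134742210-134742710, gave 0.979, 2.201, 2.54 and 1.04 with IL-1β and 7.63, 6.995, 9.15 and 5.92 with IL-17A (-1.91 ± 0.20, adjusted p = 1.31e-15). All IL-17A libraries were above all IL-1β libraries, and they overlapped the unstimulated ones (7.38 to 10.6). The promoter of ACTA2, α-smooth muscle actin, gave 8.14, 7.68, 7.67 and 8.04 with IL-1β, 14.9, 20.1, 17.5 and 9.94 with IL-17A and 20.1, 20.8, 24.7 and 12.4 in unstimulated cells. IL-1β libraries were low and close together, and the difference was -0.90 ± 0.14 (adjusted p = 7.11e-07).

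The promoter of TAGLN, transgelin, gave 34.6 to 41.8 with IL-1β and 48.4 to 70.2 with IL-17A (-0.50 ± 0.08, adjusted p = 1.14e-06), and that of ACTG2, γ-smooth muscle actin, 9.46 to 13.8 and 17.0 to 27.2 (-0.99 ± 0.13, adjusted p = 6.24e-10). Both were without overlap. The promoters of CALD1 (-0.32 ± 0.10, adjusted p = 0.0378) and LMOD1 (-0.41 ± 0.10, adjusted p = 0.00896) passed the test with groups that overlapped. Both lost the call without IL-1β replicate 2 (adjusted p = 0.609 and 0.303) or IL-17A replicate 1 (0.198 and 0.228). Loess offsets, an alternative scaling, also lost both calls (0.373 and 0.112). CALD1 lost it also without IL-17A replicate 3 (0.0585) or 4 (0.0923). The same held with a pseudocount of 0.1 (0.073) and in a fit of the 8 IL-1β and IL-17A libraries (0.0536). Of the 4 smooth muscle markers checked, the summed promoter coverage was 23.0 to 29.3 per Mb with IL-1β, 34.3 to 44.0 with IL-17A and 38.1 to 41.8 in unstimulated cells. MYH11 and DES, which define mature smooth muscle, were low in both groups (MYH11 at 1.06 with IL-1β and 1.99 with IL-17A, DES at 0.521 and 1.09). MYOCD and ACTG2 were not low, with MYOCD at 12.2 with IL-1β and 13.9 with IL-17A and ACTG2 as given above. Whether other cells had a part in the contractile difference was not tested.

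Collagens and matrix genes had 47 of 1115 peaks higher with IL-17A (4.22%) and 8 higher with IL-1β (0.718%). The shares of all tested peaks were 1.27% and 1.02%. COL1A1 and COL6A3 held 15 and 9 of the 47. The COL6A3 peak at chr2:237326272-237326772 gave 5.19, 4.84, 6.31 and 5.54 with IL-1β and 13.4, 17.9, 14.3 and 15.6 with IL-17A (-1.40 ± 0.16, adjusted p = 2.65e-13), and the intronic COL1A1 peak 4.93 to 5.71 and 10.8 to 14.8 (-1.21 ± 0.17, adjusted p = 9.68e-09). COL7A1, the collagen of anchoring fibrils, went the other way, as did called peaks of COL5A2 and LUM. A COL7A1 peak 0.3 kb from the start, at chr3:48595418-48595918, gave 54.6, 49.97, 52.5 and 60.6 with IL-1β, 29.5, 32.8, 24.9 and 26.9 with IL-17A and 28.0 to 33.3 in unstimulated cells (0.92 ± 0.11, adjusted p = 7.95e-13). The IL-1β libraries were all above the others, and IL-17A and unstimulated cells overlapped. The peak nearest to that start did not pass the test (11.1 and 8.87, difference 0.35 ± 0.20, adjusted p = 0.534). The summed promoter coverage of the 11 fibroblast markers, collagens among them, moved the same way (122 to 127 against 134 to 156 per Mb), and its part in the difference was not tested. The promoter of PDGFRA, a receptor that marks fibroblasts, gave 6.05 to 9.91 with IL-1β and 11.9 to 16.1 with IL-17A (-0.86 ± 0.17, adjusted p = 0.00018).

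Among transcription factors, AP-1 genes had 11 of 252 peaks higher with IL-17A (4.37%) and 1 higher with IL-1β (0.397%). FOS had 7 of the 11. The distal FOS peak at chr14:75266976-75267476 gave 2.29, 3.03, 2.87 and 1.85 with IL-1β, 8.89, 9.01, 9.58 and 8.49 with IL-17A and 10.6, 11.2, 10.9 and 11.7 in unstimulated cells (-1.68 ± 0.18, adjusted p = 9.96e-14). IL-1β was low, and IL-17A lay just under the unstimulated libraries. The FOS promoter did not pass the test (15.0 and 14.5, difference 0.04 ± 0.14, adjusted p = 0.962). C/EBP genes had 5 of 168 peaks higher with IL-17A (2.98%), all named for CEBPD, and 0 higher with IL-1β. The leading one lies in an intron of SPIDR, 225.6 kb from the CEBPD start. The CEBPD promoter was at 12.2 with IL-1β, 16.8 with IL-17A and 9.20 in unstimulated cells, a difference of -0.47 ± 0.16 that missed the threshold (adjusted p = 0.133). Factors that the study names for inflammatory fibroblasts (ETV4, PRDM1, RELB, GLI3 and TWIST1) had 2 of 401 peaks called in each direction (0.499% each). The PRDM1 and RELB peaks among them lost the call in 6 and 7 of 25 alternatives, PRDM1 without IL-1β replicate 1, 2 or 3 or IL-17A replicate 1 or 3 and RELB without IL-1β replicate 1, 3 or 4 or IL-17A replicate 1, 2 or 4, with adjusted p up to 0.113 and 0.254, which left 1 called peak in that direction. With peaks higher with IL-1β given first, beside 1.02% and 1.27% of all tested, the shares were 1.14% and 0.568% of 352 for universal fibroblast genes, 1.41% and 1.81% of 496 for interferon, STAT and SOCS genes, 1.70% and 1.70% of 411 for prostaglandin genes, and 0.995% and 1.49% of 201 for complement and acute phase genes.

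**Figure D4:**
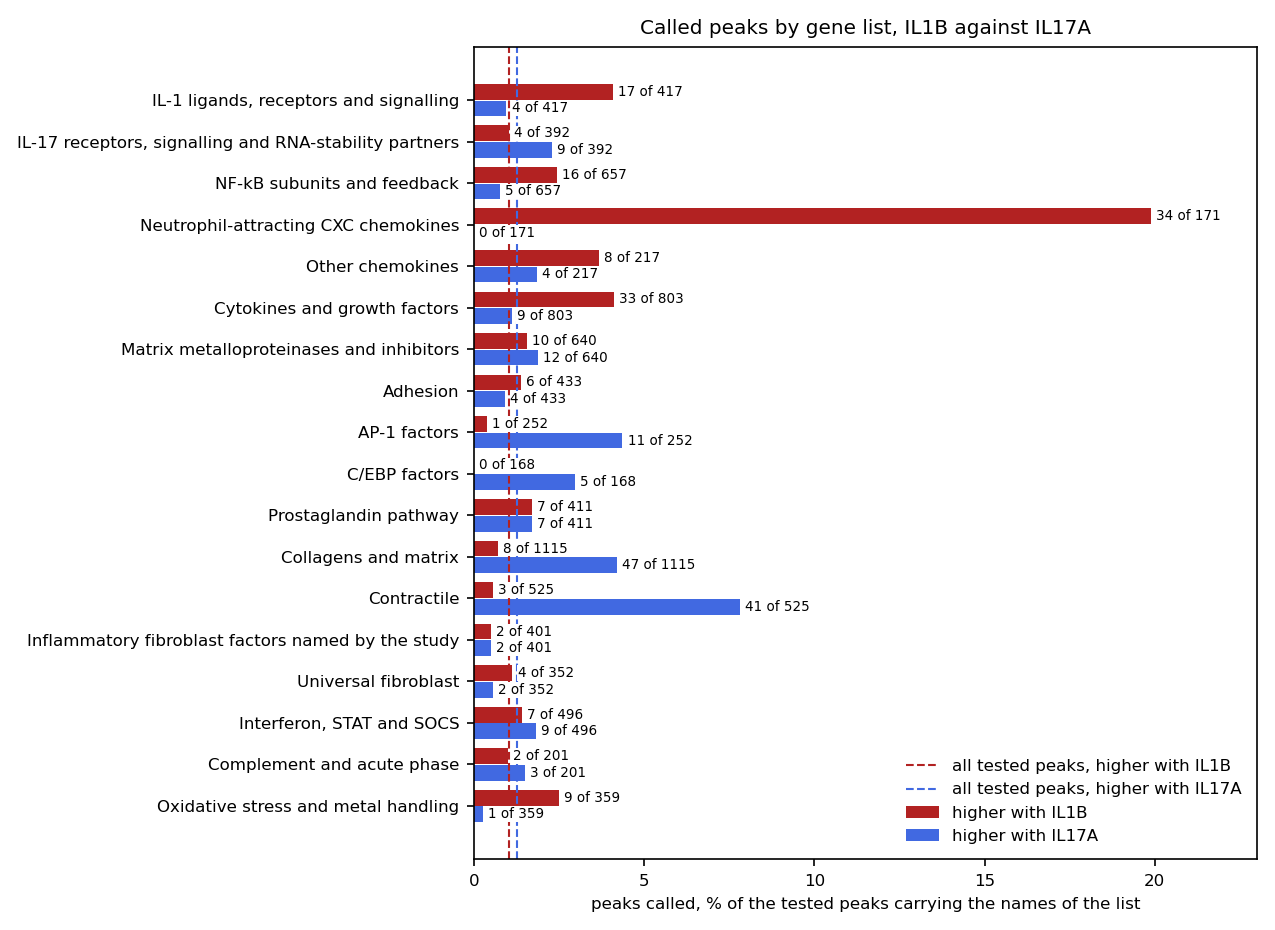
Share of the tested peaks of each gene list (x axis, %) called higher with IL1B (red bars) or higher with IL17A (blue bars), with the number of peaks at each bar. Dashed lines mark the share of all tested peaks, 1.02% higher with IL1B and 1.27% higher with IL17A. The red bar of the neutrophil-attracting CXC chemokines reaches 19.9%, and the longest blue bar is that of the contractile genes, 7.81%.

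The peaks that IL-17A itself raised over unstimulated cells were few, and they split. Of 134, IL-1β raised 91 too, 17 were higher with IL-1β than with IL-17A, 19 were higher with IL-17A, and in 98 no difference was called. The count of 134 changed with the libraries in the fit. It came to 52, 49 and 57 without IL-17A replicate 1, 2 or 3 and to 198 without IL-17A replicate 4. Without unstimulated replicate 1 or 3 it was 82 and 83. Leading the 19 was a distal peak of ZFP36L1, printed above, from chr14:68785921-68786421, 6.9 kb from its start. Coverage was 33.1, 46.6, 39.4 and 31.2 with IL-17A, 19.0, 17.9, 17.4 and 19.6 with IL-1β and 20.5, 23.6, 25.2 and 19.7 in unstimulated cells. IL-17A libraries were above both other groups, and the highest IL-1β library was just under the lowest unstimulated one (-0.99 ± 0.14 for IL-1β minus IL-17A, adjusted p = 8.19e-09).

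EGR1, an immediate early transcription factor gene, had 2 of the 19, of which the peak at chr5:138470495-138470995 gave 61.5, 59.6, 47.0 and 36.0 with IL-17A and 33.0, 31.0, 35.3 and 26.3 with IL-1β (-0.67 ± 0.10, adjusted p = 3.6e-07). CDKN1A, the cell cycle inhibitor p21, gave 8.42, 15.1, 10.9 and 7.17 and 4.55, 5.14, 5.27 and 3.16 in an untranslated part of an exon (-1.09 ± 0.23, adjusted p = 0.000853). NEAT1, a nuclear long noncoding RNA, gave 16.5 to 21.8 and 8.71 to 12.8 (-0.79 ± 0.16, adjusted p = 0.00036). The HOOK2 peak, 4.5 kb from the start of the AP-1 gene JUNB, gave 13.6 to 22.3 and 7.03 to 12.3 (-0.69 ± 0.17, adjusted p = 0.0072). The HOOK2 call was lost without IL-1β replicate 4 or IL-17A replicate 2 (adjusted p = 0.153 and 0.133). In these 4 every IL-17A library was above every IL-1β library, and the IL-1β libraries overlapped the unstimulated ones.

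The groups overlapped in 7 of the 19, where 1 or more IL-1β libraries reached the IL-17A range. In 5 of them, named for TCEA1, ELAVL2, MAP3K1, SLC25A1 and MIR5739, the highest IL-1β library was replicate 3 and the lowest IL-17A library was replicate 4 each time. At ELAVL2, for example, the IL-1β libraries ran from 1.01 in replicate 2 to 6.32 in replicate 3, and the IL-17A libraries from 6.08 in replicate 4 to 8.13 in replicate 2. The 5 peaks share this order of libraries and are not counted as independent cases, and its source was not tested. Without IL-1β replicate 1 the calls at SLC25A1 and MIR5739 were lost (adjusted p = 0.093 and 0.155).

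The 17 peaks that both cytokines raised, and IL-1β more, included the intronic CXCL1 peak above, an exonic CXCL1 peak and a distal peak of PTGS2, which encodes the prostaglandin synthase COX-2. The exonic CXCL1 peak, at chr4:73870716-73871216, gave 15.4 to 23.2 with IL-1β and 9.67 to 12.3 with IL-17A (0.78 ± 0.21, adjusted p = 0.0168), and its call was lost without IL-1β replicate 1 or IL-17A replicate 1 (adjusted p = 0.115 and 0.0753). At the PTGS2 peak, chr1:186670181-186670681, coverage was 32.8, 40.0, 40.6 and 42.3 with IL-1β, 20.1, 25.8, 14.8 and 14.4 with IL-17A and 6.02, 11.5, 8.62 and 10.6 in unstimulated cells. The 3 groups stood in that order without overlap (1.07 ± 0.22, adjusted p = 0.000346). TTLL4 gave 14.2 to 17.3, 3.99 to 7.27 and 0.716 to 2.84 (1.40 ± 0.27, adjusted p = 9.7e-05), and STX8 7.82 to 11.2, 2.52 to 4.39 and 0 to 1.63 (1.42 ± 0.32, adjusted p = 0.0014), in the same order. The STX8 call was lost with a pseudocount of 0.1 (adjusted p = 0.0665). The metal transporter gene SLC39A14 gave 52.0 to 58.1 and 33.5 to 38.4 (0.58 ± 0.12, adjusted p = 0.000168). IL-1β and IL-17A libraries did not overlap in any of the 17, and the unstimulated values of each peak are shared by both comparisons.

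Only 3 peaks were lowered by both cytokines and lower with IL-1β than with IL-17A, named for WFDC1, LINC01429 and FGGY. At the FGGY peak the groups overlapped, and its call was lost in 10 of 25 alternatives, among them leaving out any IL-1β replicate but 3 or IL-17A replicate 2 or 3 (adjusted p up to 0.235), and the LINC01429 call without IL-1β replicate 3 or IL-17A replicate 1 or 3 (up to 0.133). WFDC1, a secreted protein of stromal cells, gave 5.06, 5.31, 4.51 and 4.37 with IL-1β, 14.5, 11.4, 9.85 and 9.00 with IL-17A and 18.4, 24.6, 18.7 and 14.8 in unstimulated cells, a graded order without overlap (-1.12 ± 0.15, adjusted p = 2.02e-09). These peaks and those above for both cytokines were found by their calls in these contrasts and are a description.

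**Figure D5:**
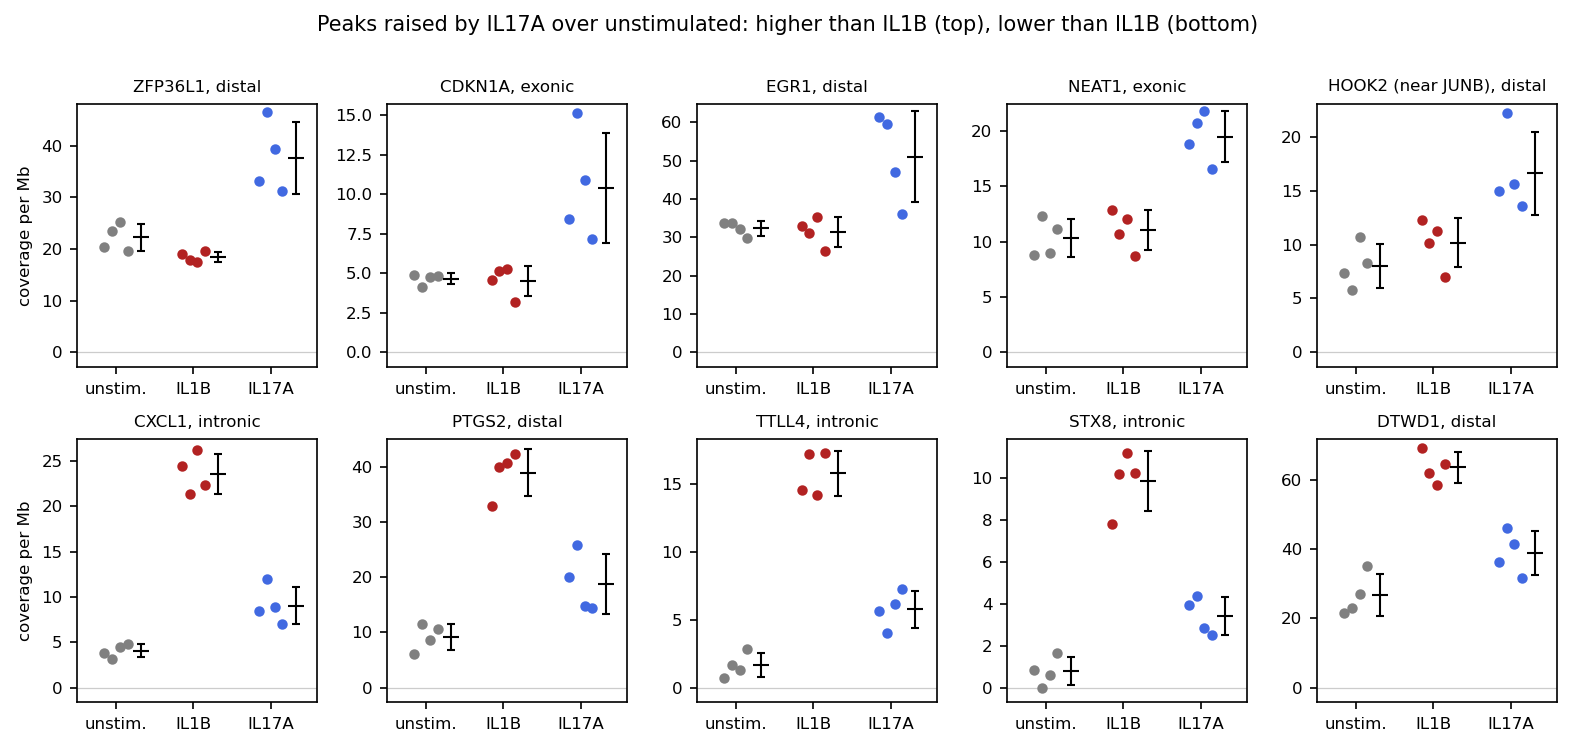
Coverage per Mb (y axis) in each library of unstimulated cells (gray), IL1B (red) and IL17A (blue) for 5 peaks raised by IL17A and higher than with IL1B (top) and 5 peaks raised by both and higher with IL1B (bottom). Black bars give the mean and SD of 4 libraries. In the top row IL17A lies above both other groups, and in the bottom row IL17A lies between unstimulated cells and IL1B.

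By position, called peaks of both directions had a lower share of promoter-class peaks than tested peaks as a whole, which was not tested. Promoter-class peaks made up 4.01% of those higher with IL-1β, 5.08% of those higher with IL-17A and 7.15% of all tested, and 0.57% and 0.904% of the 29105 promoter-class peaks were called in each direction. Distal peaks made up 40.7%, 34.2% and 34.5%, and 1.2% and 1.26% of them were called in each direction. Among exonic peaks the shares called were 0.629% and 1.22%, and among intronic peaks 1.01% and 1.33%. Called peaks also lay near each other. Another peak higher with IL-1β lay within 50 kb of 39.4% of those higher with IL-1β, beside 20.8% of all tested peaks, and the shares for IL-17A were 45.4% and 25.3%. These shares describe overlapping neighbourhoods and were not tested.

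The sequence motifs in the 500-base peaks differed between the directions. The AP-1 motif TGANTCA was in 60.2% of the peaks higher with IL-1β, 24.1% of those higher with IL-17A and 25.7% of all tested, or 30.3% of the 173558 tested peaks whose mean reached 1 per Mb. The NF-κB motif was in 20.7%, 9.41% and 13.0%, and both motifs together in 10.4%, 1.93% and 2.69%. The TEAD motif GGAATG went the other way, at 28.8%, 43.3% and 28.8%, as did the CArG box at 3.12%, 5.64% and 3.21%. TEAD and CArG were searched after the contractile and matrix peaks had been seen. The C/EBP motif TTGCNNCAA was at 5.25%, 5.37% and 4.70%. Among peaks higher with IL-1β, AP-1 was in 47.5% of the 80 with a difference over 2, in 56.4% of those from 1 to 2 and in 68.0% of those under 1. Motifs were searched on both strands, and a match says nothing of binding.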

How the data were processed

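Ccd18-Co cells were profiled by Omni-ATAC, and the authors deposited 1 table of coverage (signal) summed over the bases of 407383 peaks, which span 500 bases in hg38, in 44 libraries. Per the labels peaks came from MACS2, and the study's methods name an ENCODE pipeline. Those methods join filtered peak calls of the conditions into a consensus set, described for fewer samples than this table holds, and whether the table was made so is not given in the sources used here. Summed coverage is not a read count, so no count model was used. Coverage was divided by the library total in Mb and by a composition factor, for which log ratios were averaged after trimming, over the 148332 peaks covered in every library (30% of log ratios and 5% of means trimmed at each end). After 207 low peaks (log2 mean per Mb of -3 or less) were left out, limma 3.58.1 (R 4.3.3, trend) was fitted on log2(coverage per Mb + 0.5) in all 44 libraries with group as the only term, and p-values were adjusted by Benjamini-Hochberg over 407176 peaks. The fit was tested on simulated data. A peak was called at an adjusted p under 0.05.

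Peaks were named by 3 rules. They were the 12 called peaks of largest difference in each direction (mean coverage of at least 1 per Mb, groups not overlapping, 1 peak a gene name), up to 4 genes of each list by smallest adjusted p, and the genes with the most called peaks, of which 1 is not reported here. Peaks called for IL-17A over unstimulated were added after their values were seen. The contrast, lists and rules were chosen with earlier results of these data known. Gene names are as deposited, and annotation at each peak is from GENCODE v44. Motifs were searched on both strands. Alternatives covered scaling, pseudocount, filter, libraries in the fit, GC content, quality weights, a replicate block and leaving out each library.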

Additional observations from a re-analysis of the deposited data

Results flagged for a closer look

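Among 399 groups of 4 libraries, those of the 129 named peaks and of the 4 library measures, 26 held a library whose gap to the nearest other exceeded Dixon's critical value for 4 samples. Chance flags about 1 in 20 groups. No library was flagged throughout, and the flags are given as values in coverage per Mb.

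In unstimulated cells, replicate 3 was low at F2RL1 (0.240, the others 0.759 to 0.846) and high at ARID5A (8.12, the others 5.73 to 6.08). Replicate 1 was high at THBS1 (5.33, others 4.04 to 4.13), GLI3 (4.52, others 2.16 to 2.44) and MALAT1 (58.8, others 47.8 to 49.2). Replicate 2 was low at the IL1R1 peak (31.8, others 37.7 to 38.7) and high at PTGS1 (4.47, others 1.34 to 1.76). Replicate 4 was low at PTX3 (2.01, others 5.57 to 6.01) and at the EGR1 peak at chr5:138471060-138471560 (12.9, others 16.8 to 17.6), and high at PLA2G16 (6.77, others 4.44 to 4.74).

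With IL-1β, replicate 1 was high at THBS1 (1.01, others 0.549 to 0.571) and TRAF3 (5.00, others 2.09 to 2.59). Replicate 3 was low at LMOD1 (3.47, others 5.44 to 5.60) and LINC02539 (12.9, others 16.1 to 16.6), and high at FGGY (13.6, others 6.79 to 7.28). Replicate 4 was high at the distal IL1B peak (9.19, others 6.67 to 7.08), IFIT2 (7.30, others 3.35 to 3.91) and KCNAB2 (4.25, others 1.21 to 1.59).

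With IL-17A, replicate 1 was at 0 in the LOC100505716 peak, where the others were 1.45 to 1.70. Replicate 2 was low at BIRC3 (5.54, others 7.41 to 7.79) and high at JUN (35.9, others 20.0 to 22.7) and SH3PXD2A-AS1 (31.6, others 25.7 to 26.5). Replicate 3 was low at TRAF1 (14.2, others 18.6 to 19.0) and IL34 (15.6, others 17.6 to 17.9). Replicate 4 was high at the distal IL1B peak (3.07, others 2.47 to 2.55) and CSF2 (14.9, others 10.6 to 11.1).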

How the results depend on the processing

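None of the 9311 calls changed sign in any setting run. Counts of peaks higher with IL-1β and with IL-17A stayed within 1.5 times 4136 and 5175 in every setting except without IL-1β replicate 4. The lowest for IL-1β outside leave-one-out was 2884 with a pseudocount of 0.1, and its share of the calls, 44.4%, ranged from 35.9% with a GC correction to 51.0% with a pseudocount of 2. A composition factor over all peaks, chosen after seeing the data, gave 3186 and 5534. Leaving out 1 library gave 2665 to 4177 higher with IL-1β and 3798 to 5193 higher with IL-17A, and 1759 to 2454 that were also raised by IL-1β over unstimulated. That last count was 1714 with a pseudocount of 0.1. The number raised by IL-17A, 134, was the least stable, at 84 with a pseudocount of 0.1, 87 with a GC correction, 264 in a fit of the 12 libraries alone and 49 to 198 when 1 library was left out. Why these counts moved was not tested.

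Same-numbered IL-1β and IL-17A libraries did not deviate together (r between 0.007 and 0.016), so the numbers were not taken as pairs, and not every sample correlated best with its own number. A replicate block gave 4218 and 5258, with 9306 of the 9311 calls kept. A fit of the 8 IL-1β and IL-17A libraries gave 4968 and 5706 and no value against unstimulated cells. Over the single named peaks and all settings, the call or its absence was kept 3736 times and a call was lost 149 times. The direction turned 13 times, in promoter peaks that were not called. ETV4 was 0.02 with loess offsets, 0.01 with quality weights and between -0.19 and 0.08 when 1 library was left out. NFKBIZ was 0.08 with loess offsets and between -0.10 and 0.09, IL6 lay between -0.20 and 0.01, and FOS was -0.01 with the factor over all peaks and between -0.03 and 0.13. A peak that is not called may still differ. Intervals of depth were not computed, since coverage is not a number of reads.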

Other observations

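Genes of oxidative stress and metal handling had 9 of 359 peaks higher with IL-1β (2.51%) and 1 higher with IL-17A (0.279%). Over all tested peaks the shares were 1.02% and 1.27%. MT2A, a metallothionein that binds zinc, had 3 of 12, and its leading peak gave 29.6, 21.6, 24.7 and 31.9 per Mb with IL-1β, 10.9, 11.2, 10.9 and 10.2 with IL-17A and 11.4 to 15.0 in unstimulated cells (1.27 ± 0.17, limma, adjusted p = 7.7e-10). IL-1β libraries were all above the unstimulated ones, and IL-17A libraries were all below them. NAMPT, an enzyme of NAD synthesis, gave 2.23 to 3.18 and 0.141 to 0.744 (1.95 ± 0.39, adjusted p = 0.000253). IRF1, an interferon response factor, had 3 of 76 higher with IL-1β, while SOCS3, a feedback inhibitor of STAT signalling, had 2 of 48 higher with IL-1β and 3 higher with IL-17A.

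Some genes held peaks of large difference outside the leading sets. An intronic TNIP1 peak gave 2.78, 3.56, 4.16 and 3.08 with IL-1β and 0.951, 0.241, 0.367 and 0.0244 with IL-17A (2.21 ± 0.36, adjusted p = 2.02e-06). CDH11, a cadherin of fibroblasts, had 3 of 166 peaks higher with IL-1β and 2 higher with IL-17A. Its leading peak gave 3.00 to 7.46 with IL-1β and 0.371 to 0.918 with IL-17A (2.15 ± 0.38, adjusted p = 1.55e-05). PTX3, a secreted pattern recognition molecule, gave 1.20 to 2.201 with IL-1β and 4.08 to 6.34 with IL-17A (-1.45 ± 0.27, adjusted p = 2.95e-05).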
